A study of Mus musculus with 24 samples.

Results

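The genes described here are 10 genes for matricellular and provisional matrix proteins: Postn, Tnc, Thbs1, Thbs2, Sparc, Ccn1, Ccn2, Fn1, Tgfbi and Vcan. They were chosen by name, with earlier results of these data known. Each was matched by Ensembl identifier to a row of a table of 56065 genes. The table covers 24 libraries of mouse choroid, the vascular layer behind the retina. All 10 were found, and all 10 passed the filter on low values in every comparison.

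Matricellular proteins are secreted into the extracellular matrix, where they act on cells and on other matrix molecules more than they bear load. Many are sparse in resting adult tissue and are made again by fibroblasts, vascular cells, pigment epithelium and macrophages during wound repair. Fibronectin, versican and hyaluronan form the early, provisional matrix of a wound, which is later replaced by collagen. In the eye, laser burns that break Bruch's membrane, the sheet between the retinal pigment epithelium (RPE) and the choroid, are a standard way to provoke growth of choroidal vessels and a fibrous scar.

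The libraries fall into 4 groups by their genotype and laser labels. Of these, 4 libraries came from wild type mice without laser, 4 from Ceacam1-/- mice without laser, 9 from wild type mice with laser and 7 from Ceacam1-/- mice with laser. The Ceacam1-/- mice lack exons 1 and 2 of Ceacam1, a cell adhesion receptor of epithelial, endothelial and immune cells, in all tissues. They came from matings of heterozygotes, and the wild type mice were their littermates, of both sexes, on a C57BL/6J background at 6 to 8 weeks of age. Sex is not given per library, so it was not a term in the fits. The 4 Y-linked genes listed had median log2 differences of 3.28 with laser in wild type mice and of -4.20 between Ceacam1-/- and wild type mice with laser, with none of the 4 called, and their summed level was tried as a covariate. The labelled laser treatment was 6 spots in each eye from a frequency-doubled Nd:YAG laser, at 150 mW, 200 µm and 100 ms. The time between laser and collection is not given in the sources used here. The labels do not say which libraries share an animal, so each p-value below measures the spread between these libraries.

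The values are normalized read counts, that is, estimated reads per gene divided by factors for library depth and transcript length. They summed to between 23704346 and 35094410 per library, with 25021 to 27964 genes above 0. The reads sequenced per library are not in the table, so the depth behind each value is unknown. In bulk tissue, fewer cells of a type and less RNA per cell cannot be told apart.

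The study's methods use the word choroid for RPE, choroid and sclera together, as left after removal of the retina. Sclera may therefore be part of each library. The tissue label was checked against marker genes. All 10 markers of RPE, all 10 of endothelium, all 6 of melanocytes and all 10 of fibroblasts had a mean of at least 10 normalized counts in each group, and none was at 0 throughout. Ttr, a thyroxine carrier made by RPE, was the most abundant RPE marker and Plvap, a component of endothelial fenestrae, the most abundant endothelial marker. All 10 photoreceptor markers and all 10 skeletal muscle markers were also measured in every group. Atp2a1, the calcium pump of fast muscle, was the most abundant muscle marker. Photoreceptors belong to the neighbouring retina, and their summed marker level ranged from 7009 to 1047100 normalized counts over the 24 libraries.

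Ceacam1 itself was lower on average in the knockout groups, but the groups overlapped. Without laser the 4 wild type libraries were at 958, 1242, 4596 and 5027 normalized counts and the 4 Ceacam1-/- libraries at 405, 505, 508 and 1171. With laser the wild type libraries ran from 774 to 8367 (median 996) and the Ceacam1-/- libraries from 67.8 to 905 (median 335). These gene values also count reads from exons that the mutation leaves in place, so they check the genotype labels only in part. In each of the 4 groups the library highest in Ceacam1 was also the highest in summed surface epithelium markers, namely 22 and 28 without laser and 19 and 15 with laser. The part of surface epithelium in these values was not tested.

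Some libraries stood apart from their group. Libraries 14, 15 and 18 of the Ceacam1-/- laser group had a mean log2 level of the 10 photoreceptor markers of 15.7, 14.8 and 15.7, above every wild type laser library, whose highest was 13.4. Library 23 of the Ceacam1-/- mice without laser and library 21 of the wild type mice without laser, at 14.8 and 14.7, completed the 5 libraries with the highest level. In libraries 14, 15 and 18 the 10 genes together made up 0.191%, 0.284% and 0.240% of all normalized counts. The other 4 libraries of that group were at 1.25%, 1.49%, 0.887% and 0.976%. For 9 of the 10 genes, all but Tgfbi, libraries 14, 15 and 18 were the 3 lowest of the 7. The same 3 libraries had the lowest mean log2 levels of fibroblast, endothelial and RPE markers in their group. Library 14 had the lowest fibroblast sum of its group (48039 normalized counts against a group median of 436790). The part that tissue composition played in the values of these libraries was not tested. The counts of called genes and the main estimates for laser, genotype and interaction are also given without the 5 libraries, an alternative added after the data were seen.

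Relative to the whole library, the 10 genes made up more of the RNA in wild type libraries with laser than without. Their summed share was 0.229% to 0.422% in the 4 wild type libraries without laser and 0.163% to 0.358% in the 4 Ceacam1-/- libraries without laser. It was 0.597% to 1.07% (median 0.800%) in the 9 wild type laser libraries, all above every library without laser. In the Ceacam1-/- laser group it ran from 0.191% to 1.49% (median 0.887%), both the widest range and the highest value of the 4 groups. Sparc was the largest part of the sum in each library. It gave 271990 of the 377477 normalized counts of the 10 genes in library 5, which had the highest share. In library 13 it gave 82097 of 201229. The shares therefore reflect Sparc more than any other of the 10 genes, and they were not compared without it.

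**Figure D1:**
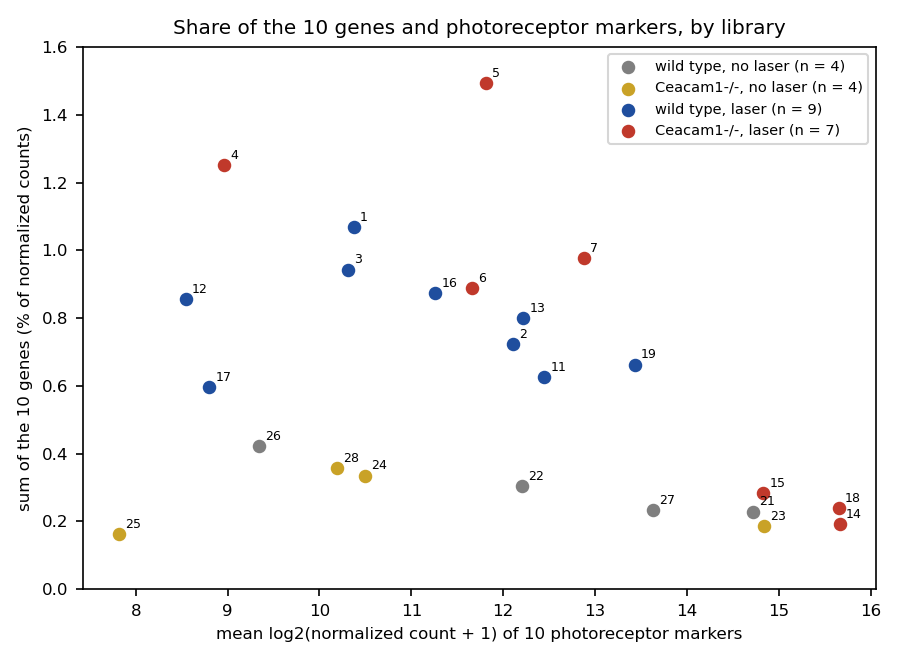
Summed normalized counts of the 10 genes as a percentage of all normalized counts (vertical axis) against the mean log2 level of 10 photoreceptor markers (horizontal axis), 1 point per library with its number, coloured by group. The wild type laser libraries sit between 0.597% and 1.07%, while the Ceacam1-/- laser libraries split into 4 at 0.887% or more and 3 (14, 15 and 18) at 0.284% or less with photoreceptor levels of 14.8 or more.

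The genes also differed in level before laser. Per kilobase of the main annotated transcript, Sparc, a collagen-binding glycoprotein, was the highest in wild type mice without laser at 20530 ± 5422 normalized counts (SD, n = 4). Ccn2 followed at 3763 ± 1653, then Ccn1 at 1328 ± 709, Thbs1 at 1239 ± 735, Tgfbi at 869 ± 963 and Postn at 461 ± 161. Fn1 was at 302 ± 98.5, Thbs2 at 231 ± 77.3, Tnc at 58.7 ± 15.2 and Vcan at 10.9 ± 7.23. From Ccn1 to Thbs2, no difference between neighbours in this order was larger than the larger of their 2 SDs, whereas the other neighbours were further apart than that.

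The first question was which of these genes changed with laser in wild type choroid. Of the 10 genes, 5 rose past the threshold in the limma test, an adjusted p under 0.05 over 19950 genes: Tnc, Postn, Fn1, Thbs1 and Vcan. None fell. Among all genes tested, 5.28% were called, 4.23% as higher and 1.05% as lower. All 10 estimates were above 0, and their median was 1.93 on the log2 scale, against -0.10 over all genes. In 5 of the 10 genes (Postn, Tnc, Thbs2, Sparc and Fn1) every laser library was above every library without laser, a pattern found in 4.50% of all genes tested (the opposite pattern was found in 1.75% of them and in none of the 10).

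**Figure D2:**
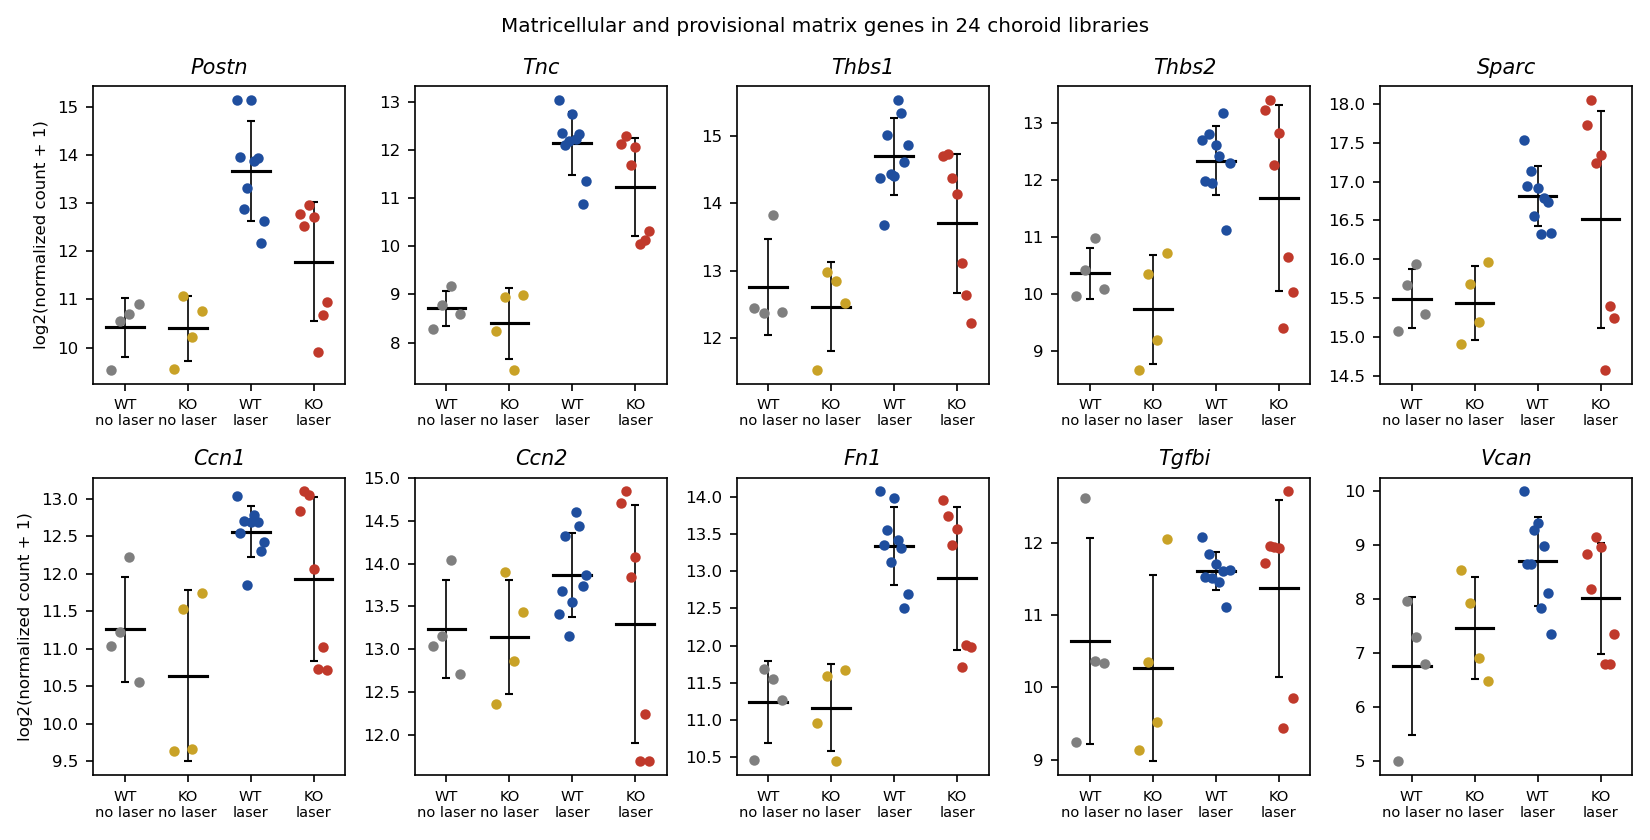
Log2(normalized count + 1) of each gene in the 24 libraries, 1 point per library, with the group mean (horizontal line) and SD (vertical bar). For Tnc and Fn1 all laser libraries of either genotype sit above the libraries without laser of that genotype, and the Ceacam1-/- laser libraries form an upper and a lower cluster for most genes.

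Tenascin C and periostin, 2 matrix proteins of healing tissue that bind integrins and help to organize new matrix, had the largest estimates. Tnc was at 312, 387, 440 and 575 normalized counts in the 4 wild type libraries without laser, and at 1896 to 8534 (median 4808) in the 9 with laser. The 2 groups did not overlap. The log2 fold change was 3.44 (SE 0.43, adjusted p = 3.06e-05), the estimate of lowest p among the 10. Postn was at 742, 1500, 1661 and 1931 without laser and at 4642 to 36299 (median 15107) with laser, again with no overlap. Its log2 fold change was 3.25 (SE 0.57, adjusted p = 0.000999). Within the laser libraries Postn varied most of the 10 genes on the log2 scale (SD 1.04), with library 12 at 36299 and library 1 at 36055, and library 17 lowest.

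Among the proteins of the provisional matrix, fibronectin rose in every laser library. Fn1 was at 1406, 2477, 2996 and 3287 without laser and at 5838 to 17296 (median 10444) with laser. The groups did not overlap, and the log2 fold change was 2.10 (SE 0.39, adjusted p = 0.00204). Vcan, the gene of the large hyaluronan-binding proteoglycan versican, was much less abundant. It was at 31.0, 111, 158 and 249 without laser and at 164 to 1026 (median 403) with laser, and 7 of the 9 laser libraries were above all 4 without laser. Its log2 fold change of 1.93 (SE 0.56) was close to the threshold (adjusted p = 0.0444) and was no longer called without any 1 of 11 of the 24 libraries (adjusted p up to 0.250). It was also lost under 6 of the 15 other alternatives: no filter on low values, quantile normalization, limma without trend, the Y-linked covariate, a photoreceptor covariate, and without the 5 libraries of highest photoreceptor level (adjusted p from 0.0518 to 0.0727). Tgfbi, which encodes a TGF-beta-induced adhesion protein that is abundant in the cornea, was at 603, 1296, 1320 and 6317 without laser and at 2214 to 4354 with laser. The groups overlapped and the estimate of 0.97 (SE 0.57) was not called (adjusted p = 0.349), at 0.50 without library 21 and 1.63 without library 22. Library 22, with the Tgfbi value of 6317, also had the highest summed level of surface epithelium markers of its group (415520 normalized counts against 804 to 80657 in the other 3 libraries). In the other 2 groups with a high Tgfbi library, library 28 without laser and library 15 with laser, the same library was again highest in these markers. Library 28 was at 484730 and library 15 at 546750. In the wild type laser group the library highest in these markers, 19 at 137580, had a Tgfbi value of 3156, close to the median of its group. The part of surface epithelium in the Tgfbi values was not tested.

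The 2 thrombospondins, calcium-binding proteins that restrain vessel growth through CD36 and CD47, had estimates of similar size. Thbs1 was at 5313, 5366, 5619 and 14586 without laser and at 13125 to 47682 (median 25165) with laser. Only library 2 of the laser group lay below the single high library, 26, of the group without laser. The log2 fold change was 1.93 (SE 0.44, adjusted p = 0.00881). Thbs2 was at 1000, 1085, 1370 and 2012 without laser and at 2236 to 9292 (median 5456) with laser, with no overlap. Its estimate of 1.98 (SE 0.59) missed the threshold (adjusted p = 0.0523). Sparc, whose product guides collagen assembly, was at 34653, 40111, 52250 and 62599 without laser and at 82097 to 190380 (median 112740) with laser. Its groups did not overlap either, with an estimate of 1.31 (SE 0.49, adjusted p = 0.124) that was not called.

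The 2 CCN genes encode proteins that bind integrins and heparan sulphate. Both are textbook targets of the YAP and TEAD transcription factors, and Thbs1 responds to several stress pathways. To show where the letters bound by such factors occur, the 250 bases before the annotated starts of Ccn1 and Thbs1 are given, taken from GRCm39, written from 5′ to 3′ on the gene's strand. Capitals mark the letters GGAATG on either strand (a TEAD motif) and TATAAA on the forward strand in Ccn1, and TGANTCA (an AP-1 motif) in Thbs1. Ccn1 is at chr3:145355739-145355988 on the minus strand and Thbs1 at chr2:117941724-117941973 on the plus strand.
Ccn1: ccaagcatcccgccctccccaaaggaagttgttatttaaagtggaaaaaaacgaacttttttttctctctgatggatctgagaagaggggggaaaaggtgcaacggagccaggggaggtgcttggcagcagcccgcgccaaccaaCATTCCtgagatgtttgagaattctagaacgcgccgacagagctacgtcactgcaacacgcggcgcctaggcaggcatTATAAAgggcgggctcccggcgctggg
Thbs1: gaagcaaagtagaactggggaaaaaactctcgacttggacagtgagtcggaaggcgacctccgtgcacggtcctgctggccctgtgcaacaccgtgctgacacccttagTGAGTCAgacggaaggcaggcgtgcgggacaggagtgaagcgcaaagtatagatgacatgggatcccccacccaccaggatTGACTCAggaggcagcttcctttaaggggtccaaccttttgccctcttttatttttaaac

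The Ccn1 window held GGAATG once, at -105 from the start on the reverse strand. Of 15737 promoter windows of the same length, 11.8% held these letters. The Thbs1 window held TGANTCA at -141 and -60, and 4.98% of windows held it. TATAAA stood at -27 in Ccn1 and in 4.89% of windows. Of the other motifs searched on both strands, CAGACA (SMAD) was in the windows of Thbs2 and Sparc and in 14.8% of all, GGGCGG (Sp1) in those of Ccn1, Fn1, Tgfbi and Vcan and in 46.0% of all. The CArG box of serum response factor was in neither printed window and in 1.21% of all. A match of letters is not evidence of binding.

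Neither CCN gene passed the threshold with laser. Ccn1 was at 1512, 2099, 2394 and 4789 normalized counts without laser and at 3685 to 8425 (median 6591) with laser, so that 8 of the 9 laser libraries were above all 4 without. The log2 fold change was 1.30 (SE 0.46, adjusted p = 0.109). Ccn2, also known as connective tissue growth factor, was at 6682, 8421, 9118 and 16860 without laser and at 9136 to 25010 (median 13663) with laser. Only 3 laser libraries were above library 26, and the estimate of 0.63 was the smallest of the 10 (SE 0.50, 95% confidence interval -0.41 to 1.67, adjusted p = 0.495). Library 26 had the highest value of the wild type libraries without laser for 6 of the 10 genes. Annotated long non-coding RNAs on the opposite strand share 1164 of the 3187 exon bases of Ccn2 and 468 of the 2032 of Ccn1, so reads from them may be mixed with these 2 genes. Such overlaps were shorter in Thbs1 (511 and 208 of 6458 bases with 2 RNAs), Fn1 (429 of 15831), Tnc (303 of 7971) and Postn (80 of 8757).

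When the 5 libraries of highest photoreceptor level were left out, which removes library 21 from the wild type libraries without laser, 7 of the 10 genes were called in wild type mice. Thbs2 (1.85, adjusted p = 0.00309), Sparc (1.18, adjusted p = 0.0125) and Ccn1 (1.22, adjusted p = 0.0485) were gained and Vcan (1.34, adjusted p = 0.0686) was lost. In that fit 1645 of 19596 genes (8.39%) were called, against 1053 of 19950 (5.28%) with all libraries. The 4 Y-linked genes had a median log2 fold change of 5.79 there, with none of them called. Postn, Tnc, Thbs1 and Fn1 were called with every single library left out.

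**Figure D3:**
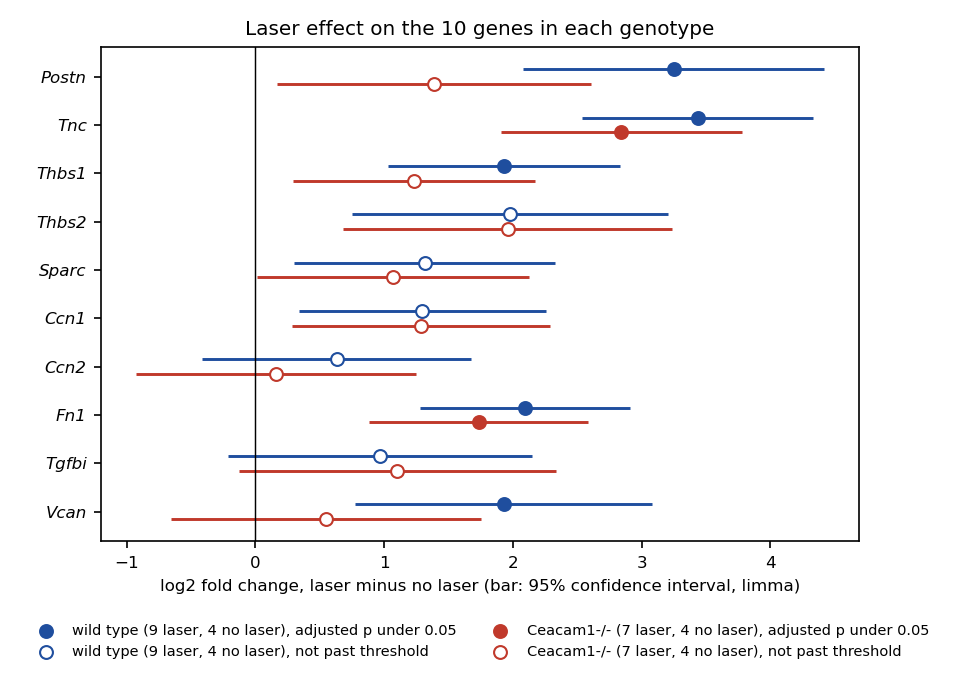
Log2 fold change of each gene, laser minus no laser, in wild type (blue) and Ceacam1-/- mice (red), with the 95% confidence interval from limma (bar). Filled points passed the adjusted p of 0.05. All 20 estimates lie above 0, with the largest at 3.44 (Tnc, wild type) and the smallest at 0.16 (Ccn2, Ceacam1-/-).

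The same comparison was made in Ceacam1-/- mice, 7 libraries with laser against 4 without. Tnc and Fn1 rose, and none of the 10 genes fell. In this comparison 3.72% of all genes tested were called, 2.07% as higher and 1.65% as lower. All 10 estimates were again above 0 (median 1.26, against 0.02 over all genes). Tnc and Fn1 were also the 2 genes in which every laser library was above every library without laser, a pattern seen in 1.17% of all genes (the opposite pattern in 0.962%).

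Tnc was at 171, 301, 491 and 510 normalized counts in the 4 Ceacam1-/- libraries without laser and at 1057, 1131, 1280, 3302, 4275, 4482 and 5045 in the 7 with laser. Libraries 14, 15 and 18 gave the 3 low values. The log2 fold change was 2.84 (SE 0.45, adjusted p = 0.00103). Fn1 was at 1391, 1989, 3092 and 3271 without laser and at 3343, 4034, 4139, 10475, 12111, 13747 and 15855 with laser, with the same libraries at the bottom. Its log2 fold change was 1.73 (SE 0.41, adjusted p = 0.0202), and it was no longer called without library 25 (adjusted p = 0.136).

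Postn was at 750, 1185, 1747 and 2139 without laser and at 957, 1635, 1979, 5884, 6728, 7010 and 7932 with laser. The 4 upper laser libraries were above all without laser, and libraries 14, 15 and 18 overlapped with them. The estimate of 1.39 (SE 0.59) was not called (adjusted p = 0.187). In Thbs2, Ccn1 and Sparc, too, the 4 upper laser libraries were above all without laser, while in Thbs1 5 laser libraries were. Thbs2 had an estimate of 1.96 (adjusted p = 0.0744), Ccn1 of 1.29 (adjusted p = 0.134), Thbs1 of 1.23 (adjusted p = 0.126) and Sparc of 1.07 (adjusted p = 0.241). In Sparc the 7 laser libraries spanned 24471 to 271990, both below and above the range of 30937 to 64147 without laser. Tgfbi (1.10, adjusted p = 0.309), Vcan (0.55, adjusted p = 0.629) and Ccn2 (0.16, adjusted p = 0.892) had wide intervals and were not divided in this way. Single libraries moved these estimates: Tgfbi was at 0.73 without library 23 and 1.70 without library 28, and Vcan at 0.22 without library 28 and 0.90 without library 23. The interval of Ccn2 ran from -0.93 to 1.24, and the sign of its estimate changed when library 4, 5 or 23 was left out.

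Without the 5 libraries of highest photoreceptor level, which left 4 laser libraries and 3 without laser, 8 of the 10 genes were called in Ceacam1-/- mice, all as higher. In that fit 2923 of 19596 genes (14.9%) were called, against 742 of 19950 (3.72%) with all libraries. The 3 laser libraries left out were the lowest of their group for 9 of the 10 genes, which by itself raises the laser estimates. Library 23, left out of the group without laser, was the lowest there for 7 of the 10 genes. Tnc was then at 3.59 (SE 0.42, adjusted p = 2.15e-05), Thbs2 at 2.85 (SE 0.42, adjusted p = 0.000168), Fn1 at 2.42 (SE 0.34, adjusted p = 0.000113) and Postn at 2.06 (SE 0.54, adjusted p = 0.0138). Sparc (1.97), Ccn1 (1.78), Thbs1 (1.70) and Vcan (1.68) were the other 4. Tgfbi (1.25, adjusted p = 0.0914) and Ccn2 (0.97, adjusted p = 0.0903) were not called. Leaving out library 14, 15, 18, 21 or 23 singly gave 2 or 3 genes called. When limma was fitted to the 11 Ceacam1-/- libraries alone, none of the 10 genes was called (lowest adjusted p = 0.0647, Tnc). Of all 20299 genes, 38 (0.187%) were called there.

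Whether the laser difference itself depended on genotype was tested as an interaction. None of the 10 genes was called, and none of all 19950 genes (0.00%). At an unadjusted p under 0.05 there was 1 of the 10 genes, against 6.22% of all genes. That gene was Postn, whose laser difference was smaller by 1.86 on the log2 scale in Ceacam1-/- mice (interaction -1.86, SE 0.82, adjusted p = 0.640). Vcan was next by size (-1.38, SE 0.81, adjusted p = 0.640), at -0.79 without library 21. The interaction was negative for 9 of the 10 genes, but without the 5 libraries of highest photoreceptor level it was positive for 8 of the 10. Among those left out were the 3 Ceacam1-/- laser libraries that were lowest of their group for 9 of the 10 genes. In that fit Postn was at -0.89 (SE 0.72, adjusted p = 0.866) and Vcan at 0.34 (SE 0.67, adjusted p = 0.940).

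Without laser the genotypes could not be told apart in these genes. The 4 Ceacam1-/- and 4 wild type libraries overlapped for each of the 10, whereas the Ceacam1-/- libraries were all above the wild type libraries in 0.922% of all genes and all below in 0.434%. None was called, nor was any of all 20057 genes (0.00%). The mutated gene, Ceacam1, was therefore not called either, with a mean of 2956 in the wild type and 647 in the knockout libraries. A count of 0 in this fit thus does not show that the genotypes are alike. For healthy choroid of these genotypes the study reported some differentially expressed genes, using DESeq2 with sex as a covariate. The fit here had no term for sex. At an unadjusted p under 0.05 there were none of the 10 genes and 1.53% of all genes. The estimates ran from -0.64 (Thbs2, 95% confidence interval -1.68 to 0.40) to 0.70 (Vcan, -0.86 to 2.26). For Postn the estimate was -0.03 (-0.92 to 0.87). The exact permutation test gave p = 0.286 for Thbs2 and p = 0.457 for Vcan, where the smallest value that 4 against 4 libraries allow is 0.0286.

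With laser, each of the 10 genes had a lower mean log2 level in the 7 Ceacam1-/- libraries than in the 9 wild type libraries, and none passed the threshold. This direction depended on the fit: 6 of the 10 were higher in Ceacam1-/- mice with array weights, 6 with a skeletal muscle covariate and 5 with a photoreceptor covariate. The 2 groups overlapped in all 10 genes. Across all genes the Ceacam1-/- libraries lay entirely above in 0.0759% and entirely below in 0.0709%. Of all 19757 genes 4 passed the threshold (0.0202%, 0.0101% in each direction), and 22.7% had an unadjusted p under 0.05. The estimates ran from -1.89 for Postn to -0.24 for Tgfbi. Of the 10 genes, 3 had an unadjusted p under 0.05, namely Postn, Thbs1 and Tnc, and with the Y-linked covariate only Postn had. With a photoreceptor covariate 1 of the 10 had, and with a skeletal muscle covariate none had.

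Postn had the largest of the 10 estimates in size. All 7 Ceacam1-/- libraries (957 to 7932 normalized counts, median 5884) lay below the wild type median of 15107, though they overlapped with the 3 lowest wild type libraries, 17, 19 and 3, at 4642, 6323 and 7555. The log2 difference was -1.89 (SE 0.52, adjusted p = 0.112), and the two-sided exact permutation test, not adjusted over genes, gave p = 0.00463. Thbs1 was lower by a log2 difference of -0.99 (SE 0.37, adjusted p = 0.164) and Tnc by -0.90 (SE 0.39, adjusted p = 0.190). Without the 5 libraries of highest photoreceptor level, the Postn difference was -0.93 (SE 0.47, adjusted p = 0.629). Thbs1 was then at -0.21 and Tnc at -0.10, and 7 of the 10 genes were higher in Ceacam1-/- mice than in wild type mice. That fit left out the 3 Ceacam1-/- laser libraries that were lowest of their group for 9 of the 10 genes. In the 4 Ceacam1-/- laser libraries kept in that fit, Postn was at 5884, 6728, 7010 and 7932, still below the wild type median. The Postn difference was negative under each alternative tried and without each single library, between -2.08 and -0.91, and was not called in any of them.

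Among the 9 wild type laser libraries, Tnc, Postn and Fn1 varied together. Pearson's r was 0.947 for Tnc and Fn1 (Spearman's rho 0.783), 0.926 for Postn and Tnc (rho 0.983) and 0.898 for Postn and Fn1 (rho 0.767). With exact permutation over 362880 pairings and adjustment over the 45 pairs, these 3 pairs passed by r (adjusted p = 0.0101, 0.0101 and 0.0341), and Postn and Tnc also passed by rho (adjusted p = 0.00223). Without the 2 libraries farthest from the median, r was 0.868, 0.921 and 0.798. Libraries 1 and 12 were high and library 17 low in all 3 genes.

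Thbs1 and Ccn2 formed another pair, with r = 0.790 (rho 0.850), which did not pass after adjustment (exact permutation, adjusted p = 0.0992). They were highest in libraries 13 and 16, where Postn, Tnc and Fn1 were near their medians. Both had negative r with Postn, Tnc, Fn1, Tgfbi, Sparc and Vcan, from -0.50 (Ccn2 and Vcan) to -0.07 (Thbs1 and Tgfbi), and these 12 values were the only negative ones of the 45. None of the 12 passed, none was tested against the positive pairs, and 2 turned positive without the 2 libraries farthest from the median (Sparc and Ccn2 at 0.35, Ccn2 and Tgfbi at 0.05). In the Ceacam1-/- laser group the libraries fell into 2 clusters of 4 and 3, so no r or test is given there, but all 45 pairs had a positive sign over the 7 libraries. Over all 24 libraries with the group means removed, which takes in these clusters, all 45 pairs were also positive. Of these pairs, 37 passed a permutation test within groups after adjustment. Pairs of other genes were not counted in the same way. Whether 37 of 45 is more than pairs of other genes would give was therefore not tested.

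**Figure D4:**
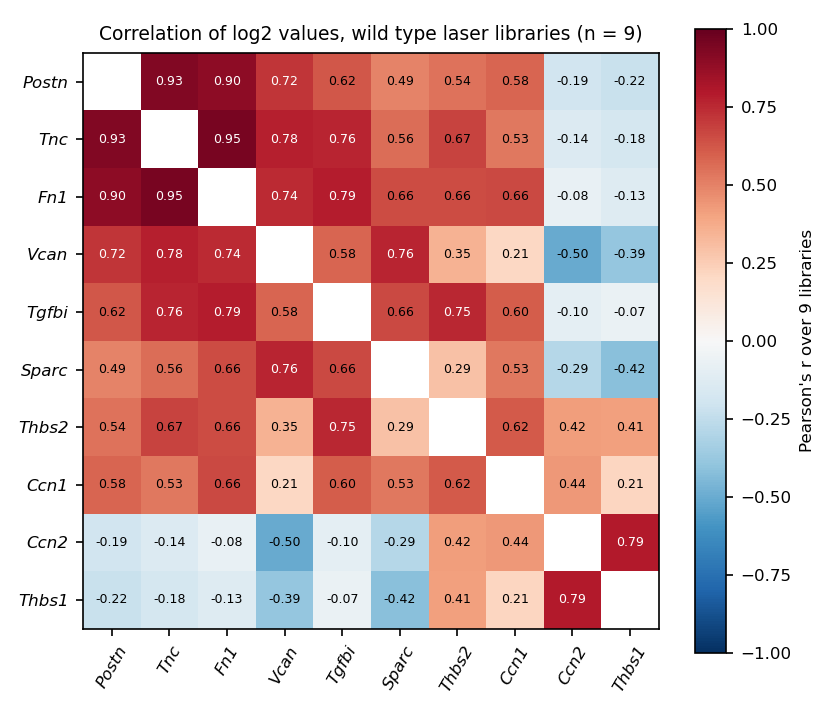
Pearson's r of log2(normalized count + 1) between each pair of the 10 genes over the 9 wild type laser libraries, from blue (negative) to red (positive). Postn, Tnc and Fn1 form a block of 0.90 to 0.95, and Ccn2 and Thbs1 are positive with each other (0.79) and negative with the first 6 genes.

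Genes outside the 10 with the most similar pattern were ranked by Pearson's r over all 24 libraries after the group means were removed, as a description, among 15727 protein-coding genes. This measure includes the libraries that stood apart, so r over the 9 wild type laser libraries is given beside it. The gene most like Postn was Aspn, the small leucine-rich protein asporin (0.929, and 0.980 in the wild type laser libraries). Sparc was most like Fkbp7, a chaperone of the endoplasmic reticulum (0.991 and 0.970), and Rcn3 (0.982 and 0.967). Thbs2 was most like Col1a2, a chain of type I collagen (0.976 and 0.954). Tnc and Fn1 shared Pycr1, an enzyme of proline synthesis (0.944 and 0.917 for Tnc, 0.950 and 0.932 for Fn1) and Txndc5 (0.931 and 0.897 for Tnc, 0.941 and 0.862 for Fn1). Thbs1 was most like Fzd8, a Wnt receptor (0.944 and 0.970), and Ccn2 like Fbln5, which binds elastic fibres (0.967 and 0.784). For Tgfbi the gene ranked first, Ces2g (0.952), was at 0.126 in the wild type laser libraries. Vcan had the lowest likeness to any gene (0.868, and 0.652 in the wild type laser libraries, Tceanc2), and Ccn1 was most like C5ar1 (0.921 and 0.647).

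Other genes of the same systems were described from lists chosen by name, with earlier results of these data known. The shares of all genes called as higher, 4.23% in wild type and 2.07% in Ceacam1-/- mice, are the background for their counts. Among 25 other matricellular genes, 5 rose with laser in wild type and 2 in Ceacam1-/- mice. Spp1, the gene of osteopontin, had the largest rise of this list, 4.92 on the log2 scale in wild type (SE 0.47, adjusted p = 9e-07). In Ceacam1-/- mice it was 4.22 (SE 0.49, adjusted p = 3.49e-05). Both estimates were above those of each of the 10 genes. Ccn4, another CCN gene, rose by 0.71 and 1.23 on the log2 scale. Of 12 other genes of the provisional matrix, 3 rose in wild type and 1 in Ceacam1-/- mice. Has2, which makes hyaluronan, the partner of versican, rose by 3.17 and 1.89 on the log2 scale. F13a1, the clot-stabilizing transglutaminase, rose by 1.88 on the log2 scale in wild type.

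Of 22 integrin chains and other receptors of these proteins, 5 rose in wild type and 3 in Ceacam1-/- mice. On the log2 scale, Plaur, the urokinase receptor, rose by 2.95 and 1.94, and Cd47, a thrombospondin receptor, by 0.78 and 0.81. Of 17 genes of TGF-beta signalling, 4 rose in wild type and 2 in Ceacam1-/- mice. Ltbp2, a matrix protein of the latent TGF-beta binding family, rose by 1.95 and 2.17 on the log2 scale. Of 23 genes of the YAP, TEAD and serum response factor pathways, only Ankrd1, a muscle ankyrin repeat protein, rose in wild type (log2 fold change 3.49, SE 0.71, adjusted p = 0.00414) and none in Ceacam1-/- mice. That count of 1 of 23 is close to the 4.23% of all genes. No gene of these 5 lists fell with laser past the threshold in either genotype. In wild type mice the median of each list on the log2 scale was 0.42 for other matricellular genes, 0.50 for the provisional matrix, 0.57 for receptors, 0.51 for TGF-beta genes and 0.10 for YAP, TEAD and serum response factor genes, against 1.93 for the 10 genes and -0.10 for all genes.

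Without the 5 libraries of highest photoreceptor level, 5.76% of all genes were called as higher in wild type and 8.66% in Ceacam1-/- mice. Of the 25 other matricellular genes 7 and 11 then rose, of the 12 provisional matrix genes 4 and 2, of the 22 receptors 8 and 9, and of the 17 TGF-beta genes 5 and 8. Spp1 was at 4.81 and 4.83 on the log2 scale and Ltbp2 at 1.78 and 2.82. Of the 23 YAP, TEAD and serum response factor genes, wild type mice had 3 higher and 1 lower, and Ceacam1-/- mice 2 in each direction. Ankrd1 was at 3.30 in wild type (SE 0.77, adjusted p = 0.0110) and at -0.26 in Ceacam1-/- mice (SE 0.88, adjusted p = 0.878). The receptor list then had 1 gene that fell, in Ceacam1-/- mice.

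**Figure D5:**
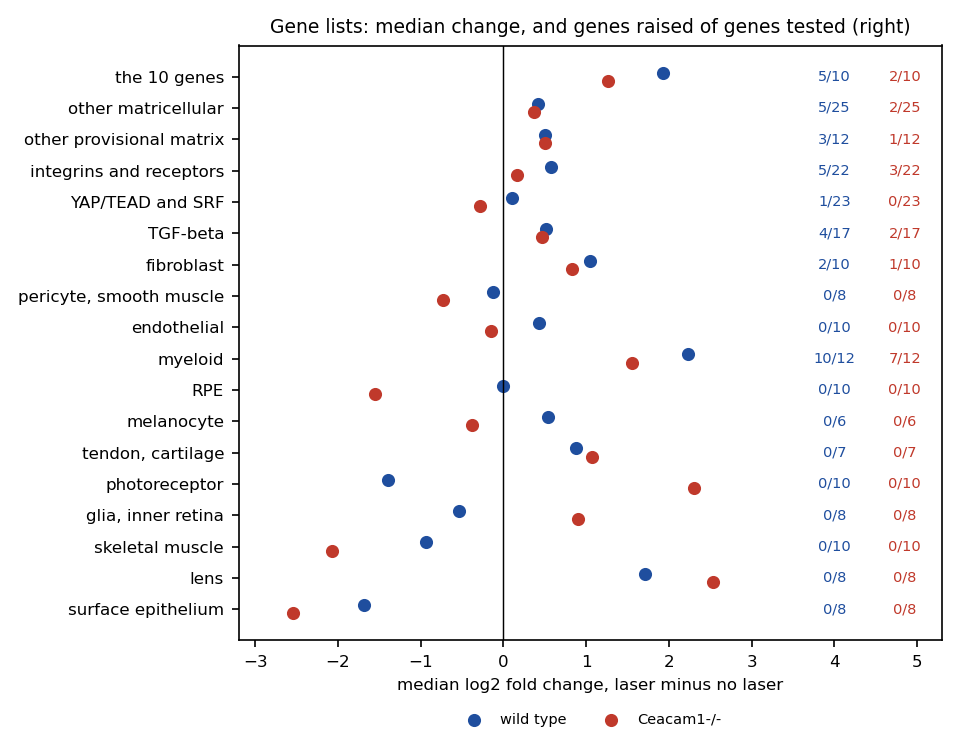
Median log2 fold change, laser minus no laser, of each gene list in wild type (blue) and Ceacam1-/- mice (red), with the number of genes raised past the threshold of the number tested at the right. The 10 genes have medians of 1.93 and 1.26, and myeloid markers, with 10 of 12 and 7 of 12 genes raised, have medians of 2.24 and 1.55.

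Markers of cell types that the tissue can hold, from lists chosen in the same way, were counted in the same comparisons. Of 12 myeloid markers, 10 rose with laser in wild type and 7 in Ceacam1-/- mice, where 4.23% and 2.07% of all genes rose. Lyz2, the lysozyme of macrophages and neutrophils and the most abundant of them, rose by 2.74 and 2.44 on the log2 scale. The summed myeloid level was 10083 to 21076 normalized counts in wild type libraries without laser and 47033 to 124140 with laser. In Ceacam1-/- mice it was 10241 to 14520 without and 15687 to 88170 with laser, lowest in library 18. Of 10 fibroblast markers, Col3a1 (log2 fold change 2.50) and Lum (1.90) rose in wild type and Lum (2.11) in Ceacam1-/- mice. Col1a1 was the most abundant, and the summed level was 88416 to 200260 without and 210730 to 470870 with laser in wild type mice. It was 41018 to 230080 and 48039 to 681740 in Ceacam1-/- mice. No gene of the other 10 marker lists was called in either laser comparison with all libraries. In these fits the photoreceptor markers had medians of -1.40 (wild type) and 2.30 (Ceacam1-/-) on the log2 scale, skeletal muscle markers of -0.94 and -2.07, and RPE markers of -0.01 and -1.56. Without the 5 libraries of highest photoreceptor level, 10 of the 12 myeloid markers rose in each genotype, and of the 10 fibroblast markers 4 rose in wild type and 7 in Ceacam1-/- mice. In that fit 9 of 10 skeletal muscle markers fell in Ceacam1-/- mice and 2 in wild type mice, where 6.26% and 2.63% of all genes fell. Also in Ceacam1-/- mice, 2 of 7 tendon and cartilage markers rose, and 1 of 8 pericyte and smooth muscle markers and 1 of 8 surface epithelium markers fell. The part of cell composition in the values of the 10 genes was not tested.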

How the data were processed

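RNA of choroid tissue was sequenced from SMART-Seq libraries. Per the study's methods, the authors quantified reads with salmon 1.10.3 on GRCm39 and imported them into DESeq2 1.44.0. The deposited signal values are DESeq2 normalized counts for 56065 genes. They are not whole reads, and the counts could not be recovered from the steps between low values, so no count model was used.

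For each gene, log2 of the value plus 1 was fitted by limma 3.58.1 (R 4.3.3), letting the variance follow the mean. A fold change on this scale understates the change of low genes. Genes with a mean of at least 10 in the libraries of a fit were kept, and p-values were adjusted by Benjamini-Hochberg over all of them. The laser comparisons and the interaction used all 24 libraries in a model of 4 groups; the genotype comparisons used the 8 libraries without or the 16 with laser. The code was tested on simulated data. Correlations over the 9 wild type laser libraries and single genes were compared by exact permutation with scipy 1.17.1. Correlations over all 24 libraries were compared with 100000 random permutations within groups.

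Genes named beyond the 10 were Ceacam1, for each list and laser comparison the 2 called genes of lowest p, the 2 most similar genes of each member, and the most abundant gene of each marker list; those named for similarity are given in part, and a few items that the rules select are not reported here. Gene models came from the mouse GENCODE release M39, a later release than the one the study names. Per-kilobase values use the canonical transcript. The 10 genes and the lists were chosen with earlier results of these data known. Alternatives were other pseudocounts, filters, scalings, limma settings, marker covariates, other sets of libraries and the omission of each library.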

Additional observations from a re-analysis of the deposited data

Results flagged for a closer look

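Thbs1 in wild type mice without laser was singled out because 1 of the 4 libraries, library 26, lay far from the others. It was at 14586 normalized counts, against a median of 5366 in the other 3 libraries. Its gap to the nearest library was 0.945 of the range of the group on the log2 scale, above the critical value of 0.829 of Dixon's test for 4 samples. Without this library the log2 fold change of Thbs1 with laser in wild type mice was 2.29 (SE 0.46, limma, adjusted p = 0.00471), against 1.93 with it. Of 40 combinations of gene and group tested this was the only one, and chance alone gives about 1 in 20.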

How the results depend on the processing

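No paired analysis was possible because the labels do not say which libraries share an animal. In wild type mice, 5 of the 10 genes were called with laser; the number was 10 with array weights, 8 with a skeletal muscle covariate and 8 with only the libraries compared, and from 4 to 6 when single libraries were omitted. Under the first 3 of these, 32.6%, 18.1% and 11.6% of all genes were called, against 5.28%, so the calls of the 10 genes rose along with those of all genes. In Ceacam1-/- mice 2 were called; the number was 8 with array weights, 4 with a skeletal muscle covariate, 7 with a photoreceptor covariate, 0 with only the libraries compared and 8 without the 5 libraries of highest photoreceptor level, an alternative chosen after the data were seen. Of all genes, 17.8%, 2.64%, 4.54%, 0.187% and 14.9% were called under these 5, in this order, against 3.72%. The number for the 10 genes ran from 1 (without library 25) to 3 when single libraries were omitted. Both genotype comparisons and the interaction had 0 of the 10 genes called under all alternatives run. The sign of Ccn2 with laser in Ceacam1-/- mice turned without library 4 (-0.08), 5 (-0.10) or 23 (-0.10), with a range of -0.10 to 0.43 over libraries left out. The interaction of Vcan turned to 0.34 without the 5 libraries. Scaling to the sum of each library moved the median of all genes in the Ceacam1-/- laser comparison from 0.02 to 0.17 on the log2 scale, with 2 of the 10 genes called. Under the photoreceptor covariate the interaction was positive for 7 of the 10 genes. Of the genotype differences with laser, 5 were positive under that covariate and 0 in the main fit. With array weights 6 were positive, with a skeletal muscle covariate 6, and without the 5 libraries of highest photoreceptor level 7. Without library 14 there were 2, and without library 18 there was 1. Depth per library is unknown, so limits of detection could not be set.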
